A study of Mus musculus with 16 samples.

Results

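The genes of the IL-2 receptor and of its feedback circuit were described in single CD4 T cells of mice infected with the hookworm-like nematode Nippostrongylus brasiliensis (Nb). The 8 genes were taken by name from the gene list of each count matrix, where all 8 were found among 31053 genes in the lung and MLN run and among 32285 genes in the medLN and MLN run. They are Il2ra, Il2rb and Il2rg, which encode the alpha (CD25), beta and common gamma chains of the receptor, Cish, Socs1, Socs2 and Socs3, which encode inhibitors of cytokine signalling, and Pim1, which encodes a serine/threonine kinase.

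IL-2 is made by activated T cells and acts on the same cells and their neighbours. The beta and gamma chains bind it weakly and carry the signal, and the alpha chain makes the complex one of high affinity. Bound receptor activates the kinases JAK1 and JAK3, which phosphorylate the transcription factor STAT5. STAT5 raises transcription of Il2ra itself, of Cish, Socs2 and Pim1, and CIS and the SOCS proteins damp the signal in return. Socs1 is also induced by interferons and Socs3 by cytokines that act through STAT3. Regulatory T cells carry high CD25 at rest, while naive CD4 T cells have little of it.

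All mice were 4get animals on the C57BL/6 background, in which cells with an active IL-4 locus turn green (IL-4eGFP), and all were infected subcutaneously with 500 larvae 10 days before analysis. No uninfected animal was among the samples used here. In the first run, CD4+IL-4eGFP+ (Th2) cells were sorted from the perfused, enzyme-digested lung and from the mashed mesenteric lymph nodes (MLN) of 2 mice aged 13 weeks, with 1 library per organ and mouse. In the second run, CD4+ cells of the mediastinal lymph node (medLN), which drains the lung, and of the MLN were sorted from 2 other mice aged 10 weeks by gates for IL-4eGFP+ and for IL-4eGFP- cells. The 4 samples of a gate carried hashtag antibodies and were pooled, so each gate is 1 library, and gate and library cannot be told apart. The gate of a cell was read by matching the number that ends its barcode with the number that ends the title of the library, a link that the sources used here do not state in words.

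The filters left 21462 cells, between 416 and 2462 per sample, with 2789854 to 14442133 gene UMIs (unique molecular identifiers, which count captured RNA molecules). The lower counts were those of lung mouse 2 and the higher ones those of MLN mouse 1. The median depth was 5766 to 6910 UMIs per cell in lung, 4971 to 4980 in the MLN of the same run and 3166 to 3667 in the second run. A level is given as UMIs per 1000000 gene UMIs of the sample (CPM), and a share as the percent of cells with at least 1 UMI, also after cells were thinned to 2000 UMIs each. Thinning left out the 1797 cells that were shallower and kept 408 to 2411 cells per sample in the first run, 1746 to 1830 in IL-4eGFP+ and 1900 to 2037 in IL-4eGFP- samples. The CD4 T cell list (Cd3d, Cd3e, Cd3g, Cd4) was detected in full in every sample, at a summed 3052 to 4101 CPM. Ms4a1, a gene of B cells, was at 0 in the first run. Il4, the cytokine of the sorted cells, was at 0 in IL-4eGFP- cells of the MLN.

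RefSeq promoter windows (GRCm38.p6, 250 bases before the start of the gene to 50 after it) were held for 6 of the 8 genes and searched for the paired half-sites that STAT5 binds, TTCNNNGAA, a motif that reads the same on both strands. The letters occurred in 2 of the 6 genes, Cish and Socs3, and in 8.30% of all 32851 windows. The matched stretches are shown because Cish and Socs3, both feedback genes with a match, moved very differently below. Capitals mark the matched letters, and sequences run 5′ to 3′ on the strand of the gene.
Cish, chr9:107296654-107296683, plus strand: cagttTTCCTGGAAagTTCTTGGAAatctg
Socs3, chr11:117969502-117969530, minus strand: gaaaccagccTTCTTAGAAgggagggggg
The 2 matches of Cish began 1 and 12 bases from the RefSeq start and lay in an annotated untranslated region. The match of Socs3 began at base -154, and it lay within the annotated span of the gene. No exon or transcript of the gene in the basic GENCODE annotation overlapped the stretch shown. Il2ra, Il2rg, Socs1 and Pim1 had no match in their windows. Il2rb and Socs2 were not analysed for sequence here. A match of letters does not show that a factor binds.

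**Figure D1:**
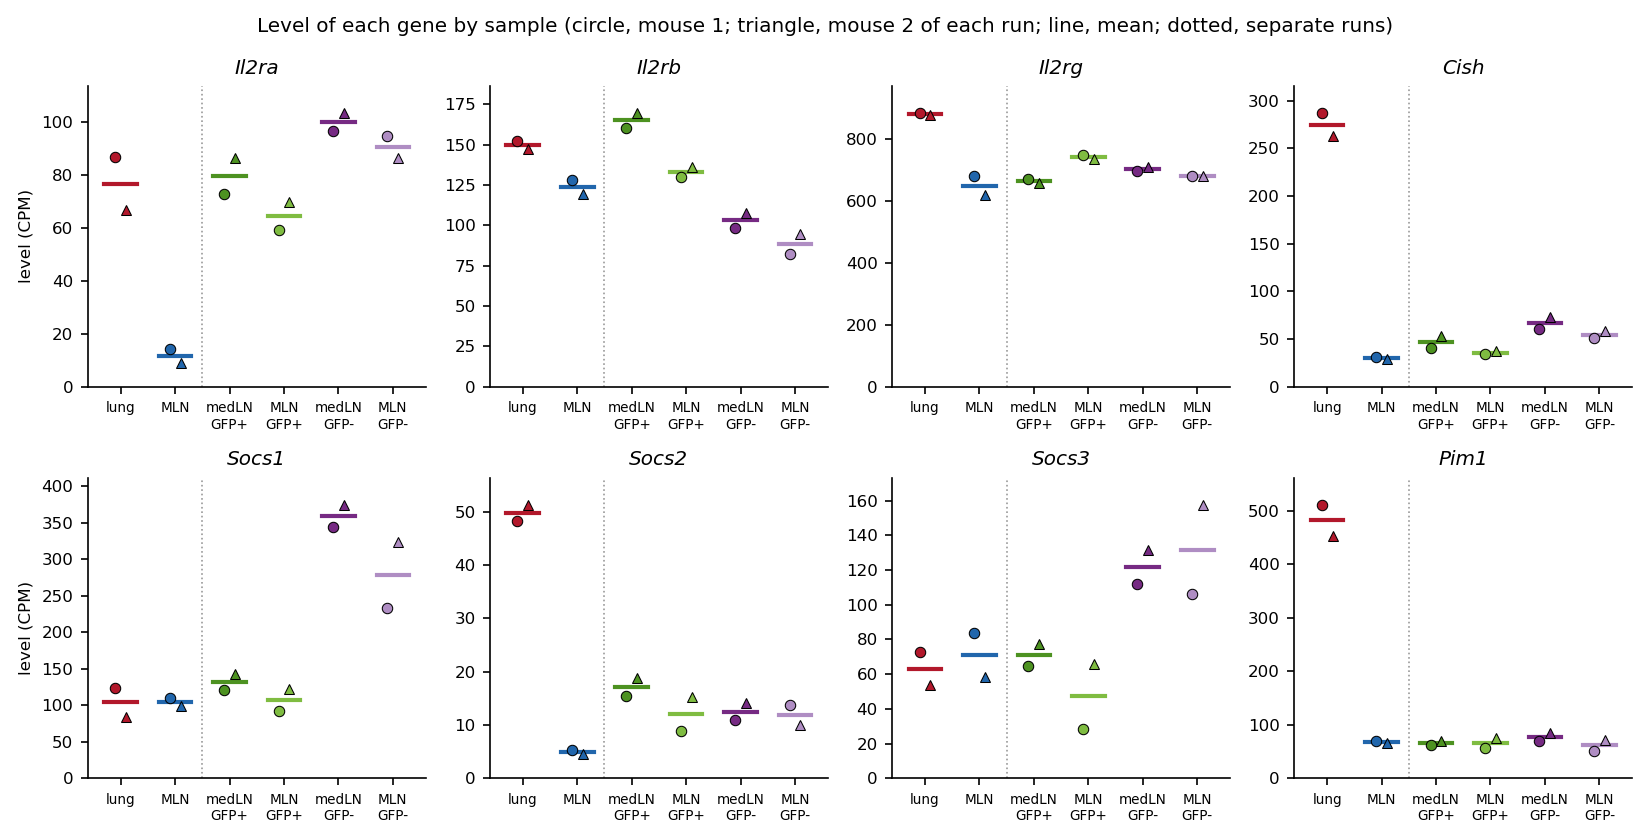
Level of each gene in CPM (vertical axis, linear and starting at 0) in the 12 samples, grouped by organ and gate, with a circle for mouse 1, a triangle for mouse 2 and a line for the mean of the 2. The dotted line parts the first run (lung, MLN) from the second, and GFP stands for IL-4eGFP; Il2ra, Cish, Socs2 and Pim1 were higher in both lung samples than in both MLN samples of that run.

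The first comparison asked how Th2 cells in the lung, the effector site, differed from Th2 cells in a distant lymph node of the same mice. The alpha chain and 3 of the feedback genes were about 6 to 11 times higher in lung, the beta and gamma chains differed by less than 1.5 times, and Socs1 and Socs3 did not pass the test. Of the 8 genes, 6 passed the test and all 6 were higher in lung, where 31.0% of all 10588 genes tested passed in either direction. The median log2 fold change of the 8 was 1.68, beside -0.01 over all genes tested. The 8 genes and the lists used below were chosen with earlier results of these data known. Their counts and medians are therefore a description and no independent support. Tests were edgeR quasi-likelihood fits of summed UMIs with p-values adjusted over the whole table by the Benjamini-Hochberg method and a threshold of 0.05, with 2 samples per group.

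Il2, the gene of the ligand, was at 17.8 and 37.6 CPM in lung mice 1 and 2 and at 7.06 and 35.3 CPM in MLN mice 1 and 2. In CPM the 2 organs overlapped, since the spread between mice was as large as the difference between organs. Il2 did not pass the test (log2 fold change 0.63, adjusted p = 0.46). The share of cells with an Il2 UMI did not overlap, at 7.02 and 11.8% in lung and 2.52 and 4.11% in MLN. Thinned, it was 2.90 and 5.39% against 0.788 and 1.88%. In MLN mouse 2 the 157 UMIs lay in 31 cells, and 1.06% of all its cells had 2 or more. The shares were not tested.

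Among the receptor chains, Il2ra was at 87.0 and 66.7 CPM in lung and at 14.5 and 8.98 CPM in MLN. Both lung samples were far above both MLN samples, and within a mouse the lung was 6.01 and 7.42 times higher. The log2 fold change was 2.79 ± 0.23 (SE, n = 2 per group, adjusted p = 2.19e-05). MLN cells of the same gate in the second run, which was not tested against the first, had 59.3 and 69.9 CPM of Il2ra. Il2rb, the signalling chain shared with the IL-15 receptor, was at 152 and 147 CPM in lung and at 128 and 120 CPM in MLN. The groups did not overlap, but the difference was small: the log2 fold change of Il2rb was 0.41 ± 0.12 (SE, adjusted p = 0.0259). It passed in neither DESeq2 (adjusted p = 0.0691) nor a scaling by total UMIs (0.27, adjusted p = 0.0669), nor without lung mouse 1 (adjusted p = 0.101), MLN mouse 1 (0.106) or MLN mouse 2 (0.226). Where 1 of 2 samples of a group is left out, here and in later values, the remaining one is assumed to vary like those of the other group, so its p rests on the spread of that group.

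Il2rg encodes the chain that all gamma-chain cytokine receptors share. It was at 882 and 877 CPM in lung and at 679 and 619 CPM in MLN, again with no overlap. The log2 fold change of Il2rg was 0.57 ± 0.13 (SE, adjusted p = 0.0083), and without MLN mouse 1 or MLN mouse 2 it no longer passed (adjusted p = 0.0575 and 0.159). The beta and gamma chains thus differed between organs by far less than the alpha chain.

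Of the feedback genes, Cish, which encodes CIS, was at 287 and 263 CPM in lung and at 31.3 and 29.6 CPM in MLN. The lung was 9.16 and 8.86 times higher within a mouse, close together in the 2 animals. The log2 fold change of Cish was 3.31 ± 0.14 (SE, adjusted p = 5.63e-07). Socs2, best known as the brake on growth hormone signalling, was at 48.3 and 51.3 CPM in lung and at 5.33 and 4.49 CPM in MLN. Its within-mouse ratios were 9.06 and 11.4, and the log2 fold change of Socs2 was 3.42 ± 0.16 (SE, adjusted p = 9.82e-07). Pim1, a survival kinase induced by STAT signals, was at 511 and 453 CPM in lung and at 68.9 and 66.0 CPM in MLN. The within-mouse ratios of Pim1 were 7.41 and 6.87, with a log2 fold change of 2.97 ± 0.14 (SE, adjusted p = 1.06e-06).

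Socs1 and Socs3 behaved otherwise. Socs1 was at 123 and 84.2 CPM in lung and at 110 and 99.5 CPM in MLN, so that both MLN samples lay between the 2 lung samples. The log2 fold change of Socs1 was 0.16 ± 0.19 (SE, adjusted p = 0.565); with lung mouse 1 as the only lung sample it was 0.44 (adjusted p = 0.0148), and with lung mouse 2 as the only one it was -0.26 (adjusted p = 0.196). Socs3 was at 72.7 and 53.8 CPM in lung and at 83.8 and 58.4 CPM in MLN. The groups overlapped, with a log2 fold change of -0.01 ± 0.21 (SE, adjusted p = 0.972).

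**Figure D2:**
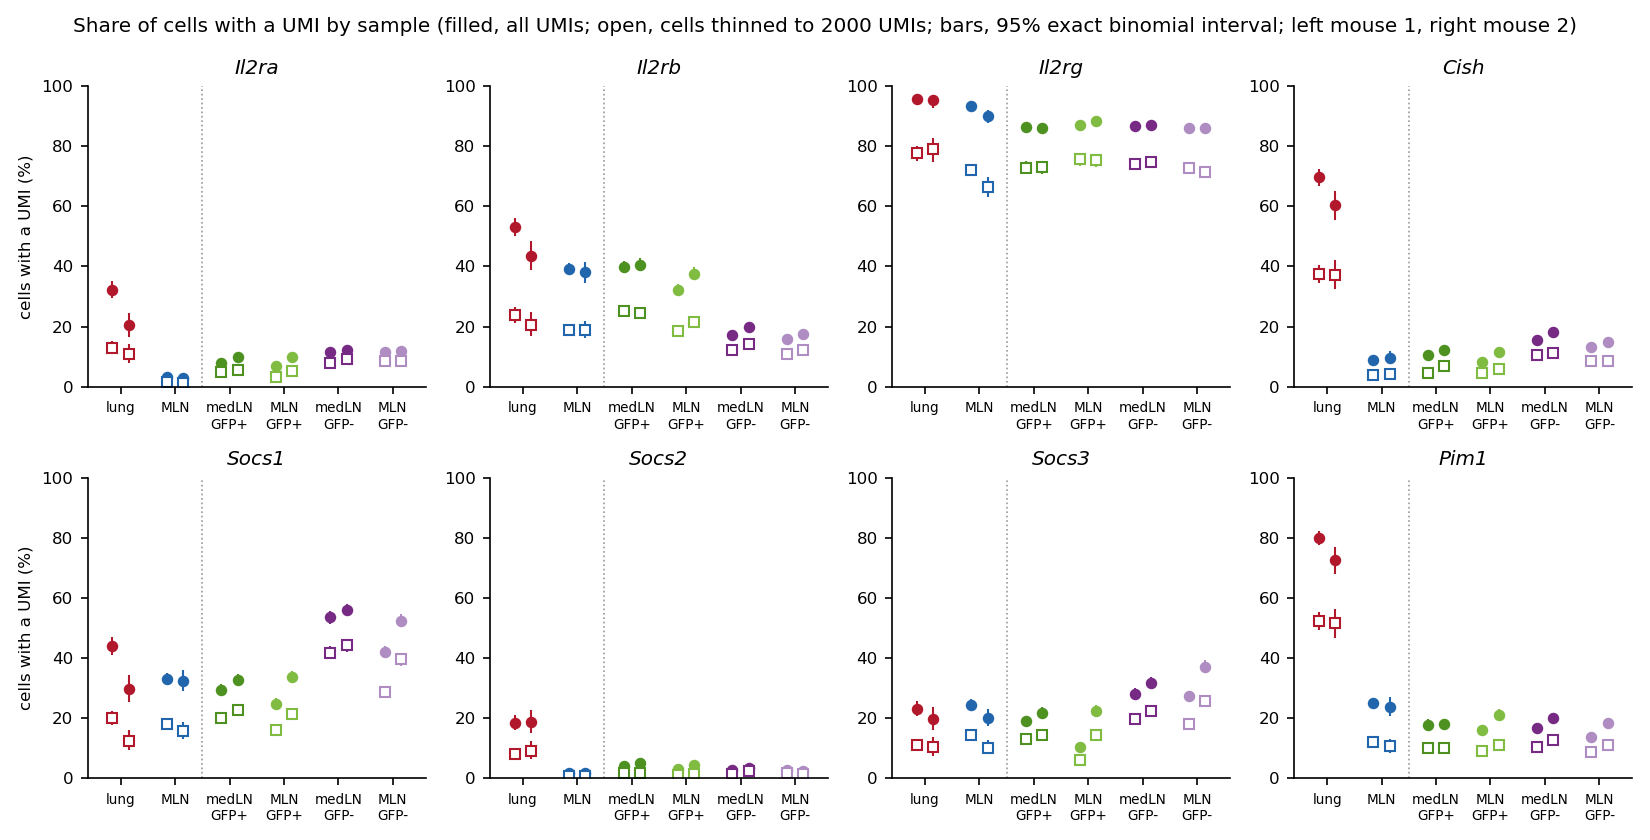
Percent of cells with at least 1 UMI of each gene (vertical axis, 0 to 100) in the 12 samples, mouse 1 at left and mouse 2 at right in each group, with 95% exact binomial intervals that cover counting error only. Filled circles use all UMIs and open squares the cells thinned to 2000 UMIs; Cish and Pim1 reached 60.3% or more of lung cells and stayed at 25.0% or less of cells in the other groups.

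The differences were also seen in the share of cells. Il2ra was detected in 32.3% and 20.4% of lung cells and in 3.21% and 3.05% of MLN cells. After thinning, these shares were 13.02% and 10.8% in lung and 1.58% and 1.35% in MLN, so that the gap remained at equal depth. Free RNA can give UMIs in cells that do not express a gene, so IL-4eGFP- node cells with a UMI each of Ccr7 and Lef1, genes of naive T cells, and none of Foxp3 or S100a4 were taken as a reference, a choice made after the data had been seen. Of 4105 such cells, 2.996% had an Il2ra UMI (95% exact binomial interval 2.496 to 3.56%), or 2.0005% after thinning, at a median depth of 3627 UMIs. The shares in MLN cells of the first run, whose median depth was 4971 to 4980 UMIs, lay within this interval, while the lung shares were far above it. The reference came from other libraries than these, and the share alone does not tell how many of the MLN cells expressed the gene.

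Cish was detected in 69.7% and 60.3% of lung cells and in 8.85% and 9.68% of MLN cells. Pim1 was found in 80.04% and 72.6% of lung cells against 25.0% and 23.9% of MLN cells, and Socs2 in 18.5% and 18.8% against 1.87% and 1.72%. Thinned, the lung shares were 37.4% and 37.3% for Cish, 52.3% and 51.5% for Pim1 and 8.05% and 9.07% for Socs2, each several times the highest thinned MLN share of 4.17%, 11.9% and 0.83%. Cells with no UMI of Cish, Socs2 or Pim1 made up 8.13 to 12.7% of lung cells and 69.1 to 69.6% of MLN cells, or 29.96 to 30.4% and 84.4 to 86.1% after thinning. Most lung cells thus held a UMI of at least 1 of these genes, although Socs2 by itself was found in a minority of them. All 3 receptor chains were detected together in 11.1 to 19.5% of lung cells and in 1.46 to 2.36% of MLN cells, and after thinning in 2.45 to 2.62% and 0.664 to 0.808%.

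Other values moved with the organ. Lungs were digested with enzymes and nodes were not, and of 15 genes known to respond to tissue dissociation (Fos, Jun, Egr1, heat shock genes and others) 14 were higher in lung, with a median log2 fold change of 2.71 and a summed level of 9638 to 10130 CPM against 1301 to 1716 CPM. None of the 15 was at 0 in either organ. Organ and dissociation cannot be told apart, also for the genes of the IL-2 circuit. Cells with a UMI of Mki67 or Top2a, called cycling here, made up 22.4 to 27.7% of lung cells and 13.4 to 13.9% of MLN cells, and the same 6 genes passed with those cells left out. Cells with a Foxp3 UMI were 0.555 to 0.721% of lung cells and 0.284 to 0.398% of MLN cells, and without them Il2ra kept a log2 fold change of 2.70 (adjusted p = 2.89e-05).

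When cells were divided by Il2ra detection, a split added after the data had been seen, Cish and Pim1 passed as higher in lung in both parts. Socs2 passed only among cells with no Il2ra UMI. A cell that held Il2ra RNA but gave no Il2ra UMI fell in the part without one, here and in later splits. Among cells with no Il2ra UMI, Cish was higher in lung by a log2 fold change of 3.47 ± 0.13 (SE), Socs2 by 3.92 ± 0.21 and Pim1 by 3.01 ± 0.14, and all passed. Among cells with an Il2ra UMI, which were 350 and 85 in lung but 79 and 23 in MLN, Cish was higher by 1.28 ± 0.23 (adjusted p = 0.00842) and Pim1 by 1.89 ± 0.23 (adjusted p = 5.97e-04). Socs2 there had a value of 0.78 ± 0.31 that did not pass (adjusted p = 0.183), nor did Il2rb at -0.63 ± 0.23 (adjusted p = 0.151).

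**Figure D3:**
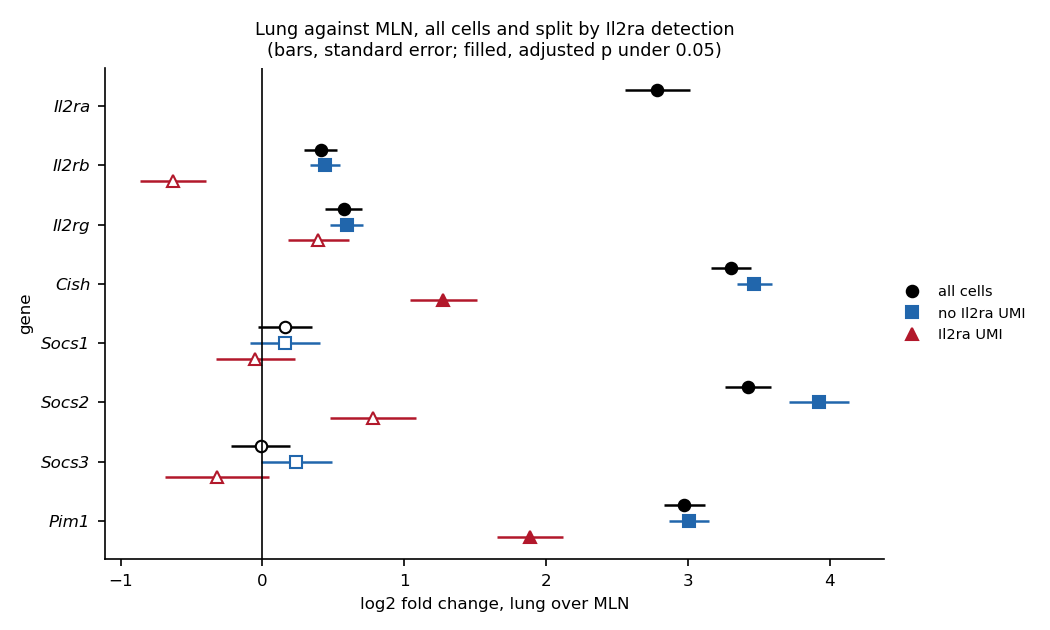
Log2 fold change of lung over MLN (horizontal axis) for each gene in all cells, in cells with no Il2ra UMI and in cells with an Il2ra UMI, with standard errors as bars (n = 2 per group) and filled symbols where the adjusted p was under 0.05. Il2ra is not shown within cells chosen by its own UMIs; Cish and Pim1 were filled in all 3 sets and Socs1 and Socs3 in none.

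Genes around the receptor were read from lists of known parts of the pathway. In lung against MLN 31.0% of all 10588 genes passed in either direction. Organ and dissociation cannot be told apart for the list genes either. Of the JAK and STAT genes that serve the receptor, Stat5b was lower in lung (log2 fold change -0.47 ± 0.12, SE), and Stat5a, Jak1 and Jak3 did not pass. Of 5 chains that pair with the gamma chain or are related to it, 3 were higher, Il7r (2.48 ± 0.24), Il9r (0.65 ± 0.17) and Il4ra (0.56 ± 0.14). Of 13 other feedback genes, the SOCS, PIAS, phosphatase and PIM genes that are not among the 8, 1 was higher and 2 were lower: Pim3, a kinase related to Pim1, by 2.51 ± 0.16, and the phosphatase genes Ptpn11 and Ptpn6 by -0.75 ± 0.13 and -0.54 ± 0.14.

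Among 15 genes known to be induced by IL-2 or STAT5, 8 were higher in lung and none lower, where 31.0% of 10588 genes passed. The list median was 0.45, beside -0.01 over all genes tested. Dusp5, a phosphatase of MAP kinases that IL-2 induces, was higher by 4.93 ± 0.17, and others were Nfil3 (2.05 ± 0.23) and the TNF receptor family genes Tnfrsf4 (OX40, 1.95 ± 0.17) and Tnfrsf18 (GITR, 1.48 ± 0.17). Of 5 genes known to be repressed by IL-2, 4 were lower, among them Il6st (-2.59 ± 0.14), Tcf7 (-1.89 ± 0.12) and Bcl6 (-1.24 ± 0.15). The fifth, Il7r, the gene of the IL-7 receptor, went the other way. Gata3, the Th2 regulator, was higher by 2.03 ± 0.13.

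The second run compared the 2 nodes within each gate, where all cells were prepared without enzymes. None of the 8 genes passed in IL-4eGFP+ cells, where 1.28% of 11263 genes did, and none in IL-4eGFP- cells, where 0.178% of 10684 genes did; 1392 and 666 genes had an unadjusted p under 0.05. In IL-4eGFP+ cells Il2rb was at 161 and 169 CPM in medLN and at 130 and 136 CPM in MLN, with no overlap and a ratio of 1.24 within each mouse. Its log2 fold change of 0.30 ± 0.06 (SE) did not pass (adjusted p = 0.0749) but did with mouse as a replicate block (adjusted p = 0.0497). The other 7 genes differed by -0.17 to 0.57 on the log2 scale. Socs3 was at 64.7 and 77.6 CPM in medLN and at 28.6 and 65.9 CPM in MLN, and against MLN mouse 1 as the only MLN sample, with no spread of its own, the log2 fold change of Socs3 was 1.32 (adjusted p = 0.0037).

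In IL-4eGFP- cells Socs1 was at 345 and 374 CPM in medLN and at 233 and 323 CPM in MLN. Both medLN samples were above both MLN samples, but the MLN samples were farther apart from each other than the higher of them was from medLN. The log2 fold change of Socs1 was 0.31 ± 0.12 (SE, adjusted p = 0.62), and 0.33 with mouse as a block (adjusted p = 0.0276). Without medLN mouse 1 the fits called Socs1, Cish and Pim1, without MLN mouse 2 Socs1 and Pim1, and without MLN mouse 1 Socs3, the last as lower in medLN (-0.44), so these calls rested on single samples. Of the pathway lists, Nfil3 (-0.78 ± 0.10, SE), Il7r (0.59 ± 0.10) and the IL-6 receptor gene Il6ra (0.82 ± 0.11) passed between nodes in IL-4eGFP+ cells and Tnfrsf4 (1.02 ± 0.10) in IL-4eGFP- cells.

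The 2 gates were then compared over both nodes, with organ in the model. The 4 samples of a gate came from 2 mice, and the fit took the 2 nodes of a mouse as independent. In IL-4eGFP+ cells Socs1 and Socs3 were lower than in IL-4eGFP- cells by the most, Cish and Il2ra by less, and Il2rb was higher. Of the 8 genes 6 passed, 1 higher and 5 lower in IL-4eGFP+, where 63.0% of all 11035 genes passed in either direction. A share of 6 in 8 is near this background. The median of the 8 was -0.43 beside -0.02 over all genes. Levels in CPM are scaled by total UMIs and the fold changes by the TMM method of edgeR, so the 2 can differ. With scaling by total UMIs the median over all genes was 0.18, and 5 of the 8 genes passed. With the 2 nodes of a mouse summed, 6 of the 8 genes passed, 1 higher and 5 lower, where 6962 of 12140 genes passed.

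Il2 was at 15.9, 6.87, 10.4 and 8.59 CPM in IL-4eGFP+ cells (medLN mice 1 and 2, MLN mice 1 and 2, the order used throughout) and at 1.95, 2.53, 0.87 and 1.02 CPM in IL-4eGFP- cells. No IL-4eGFP- sample reached the lowest IL-4eGFP+ sample, and Il2 was higher in IL-4eGFP+ by a log2 fold change of 2.53 (adjusted p = 2.09e-05). The receptor chains did not move together. Il2ra was at 72.8, 86.4, 59.3 and 69.9 CPM in IL-4eGFP+ cells and at 96.7, 103, 94.6 and 86.3 CPM in IL-4eGFP- cells. The gates met at medLN mouse 2 and MLN mouse 2, where 86.4 stood beside 86.3, and the log2 fold change of Il2ra was -0.60 ± 0.07 (SE, adjusted p = 1.47e-05).

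This value of Il2ra changed with the cells that were left out, and the cause was not tested. Cells with a Foxp3 UMI made up 8.40 to 12.3% of IL-4eGFP- cells and 1.02 to 3.24% of IL-4eGFP+ cells. With them left out of both gates the log2 fold change of Il2ra was 0.60 ± 0.14 in the opposite direction (adjusted p = 0.00291). It was -1.40 in thinned cells, from which the shallow ones are missing, and -1.44 with cycling cells left out. Il2rb was at 161, 169, 130 and 136 CPM in IL-4eGFP+ and at 98.4, 108, 82.4 and 94.9 CPM in IL-4eGFP- cells, with no overlap (log2 fold change 0.44 ± 0.06, adjusted p = 3.56e-05). Without the cells with a Foxp3 UMI, Il2rb was higher by 1.17 ± 0.06. Il2rg differed little, at 672, 658, 748 and 733 CPM against 696, 708, 680 and 681 CPM. Its medLN samples were lower and its MLN samples higher in IL-4eGFP+, and the called log2 fold change of Il2rg, -0.18 ± 0.04 (adjusted p = 0.00129), was 0.02 with scaling by total UMIs (adjusted p = 0.632) and -0.05 after thinning (adjusted p = 0.382).

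Among the inhibitors, Socs1 was at 121, 142, 91.6 and 122 CPM in IL-4eGFP+ cells and at 345, 374, 233 and 323 CPM in IL-4eGFP- cells. All 4 IL-4eGFP+ samples were below all 4 IL-4eGFP- samples (log2 fold change -1.61 ± 0.11, SE, adjusted p = 8.20e-08), and Socs1 was detected in 24.8 to 33.6% of IL-4eGFP+ and 42.02 to 56.0% of IL-4eGFP- cells. The value without cells that had a Foxp3 UMI was -1.64. Socs3 was at 64.7, 77.6, 28.6 and 65.9 CPM against 112, 131, 106 and 158 CPM, again with no overlap (-1.31 ± 0.22, adjusted p = 2.47e-04). Cish was at 40.4, 53.6, 34.4 and 37.1 CPM against 60.5, 72.9, 51.0 and 58.0 CPM, and only the highest IL-4eGFP+ sample passed the lowest IL-4eGFP- sample (-0.75 ± 0.09, adjusted p = 1.87e-05).

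Socs2 and Pim1 did not pass. Socs2 was at 15.4, 18.7, 8.84 and 15.2 CPM in IL-4eGFP+ and at 10.9, 14.1, 13.7 and 9.93 CPM in IL-4eGFP- cells, with overlapping gates (log2 fold change 0.06 ± 0.18, adjusted p = 0.794). With cells that had a Foxp3 UMI left out, Socs2 was higher in IL-4eGFP+ by 1.45 ± 0.25 (adjusted p = 2.01e-04), and with cycling cells left out it was lower (-0.40, adjusted p = 0.0369). Pim1 was at 62.6, 69.4, 56.0 and 76.0 CPM against 70.6, 83.9, 51.2 and 71.7 CPM, overlapping as well (-0.26 ± 0.12, adjusted p = 0.0841). With the hashtag sample as a replicate block Pim1 passed (adjusted p = 0.0034), and cycling cells, which made up 18.1 to 21.5% of IL-4eGFP+ and 2.98 to 4.45% of IL-4eGFP- cells, moved with the gate in all of these values.

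**Figure D4:**
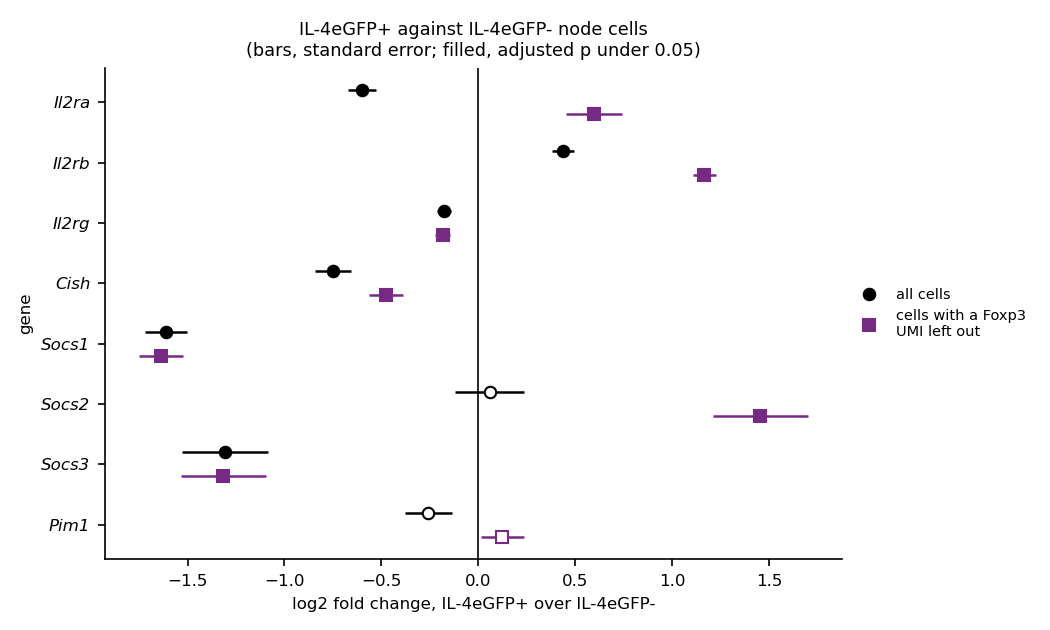
Log2 fold change of IL-4eGFP+ over IL-4eGFP- node cells (horizontal axis) for each gene with all cells and with cells that had a Foxp3 UMI left out, with standard errors as bars (n = 4 samples per gate, from 2 nodes of each of 2 mice) and filled symbols where the adjusted p was under 0.05. Il2ra lay at -0.60 with all cells and at 0.60 without those cells, and Socs1 stayed at -1.61 and -1.64.

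A test of whether the gate difference itself differed between nodes called none of the 8 genes, where 0.181% of 11035 genes passed and 785 had an unadjusted p under 0.05. With the hashtag sample as a block, Socs3 passed (difference of log2 fold changes 0.77, adjusted p = 0.0243). For other parts of the pathway, the next values are those of the gates compared over both nodes. In that comparison 63.0% of all 11035 genes passed in either direction. There 5 of 7 JAK and STAT genes were lower in IL-4eGFP+ cells, among them Stat6 (-0.43 ± 0.07, SE). Jak3 was the 1 that was higher (0.54 ± 0.06). Of the 15 genes known to be induced by IL-2 or STAT5, 7 were higher and 7 lower, from Gzmb (2.35 ± 0.41) and Nfil3 (1.77 ± 0.22) to Bcl2 (-2.91 ± 0.08) and Myc (-1.74 ± 0.07). Il4ra and Il7r were lower by -2.56 ± 0.07 and -1.55 ± 0.12.

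Within the IL-4eGFP- gate, cells with a UMI of Foxp3, a marker of regulatory T cells, were set against the other cells of each hashtag sample. Il2ra was at 538, 547, 609 and 554 CPM in cells with a Foxp3 UMI and at 35.5, 32.7, 47.5 and 32.5 CPM in the rest. Every sample with Foxp3 was more than 10 times its partner, and the log2 fold change of Il2ra was 3.79 ± 0.09 (SE, adjusted p = 9.68e-14). Of the 8 genes 5 passed, all higher, where 24.4% of 9807 genes passed.

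The others that passed were the beta chain gene and the 3 feedback genes that had been higher in lung. Il2rb was at 392 to 437 CPM with and at 52.2 to 60.4 CPM without a Foxp3 UMI (2.72 ± 0.08, adjusted p = 2.59e-12). Socs2 was at 61.8 to 104 CPM against 1.84 to 5.55 CPM (4.09 ± 0.22, adjusted p = 3.95e-09). Cish was at 137 to 200.1 CPM against 37.3 to 56.7 CPM (1.73 ± 0.13, adjusted p = 1.59e-07), and Pim1 at 184 to 249 CPM against 39.1 to 57.7 CPM (1.94 ± 0.08, adjusted p = 3.08e-10). None of these ranges overlapped. Il2rg, at 684 to 759 CPM against 673 to 699 CPM, Socs1, at 267 to 347 CPM against 225 to 391 CPM, and Socs3, at 93.7 to 184 CPM against 102 to 155 CPM, overlapped and did not pass. Ikzf2 (Helios), another gene of regulatory T cells, was higher by 3.53 ± 0.10 in the cells with a Foxp3 UMI, and Tnfrsf4 and Tnfrsf18 by 3.60 ± 0.07 and 1.87 ± 0.08.

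Detection of Il2ra itself was used next to ask whether the other 7 genes moved with the alpha chain cell by cell. In IL-4eGFP- nodes 4 of 7 passed, all higher in cells with an Il2ra UMI, where 25.9% of 9829 genes passed. Socs2 was at 70.0, 86.3, 99.0 and 74.4 CPM in cells with an Il2ra UMI and at 1.21, 2.92, 2.26 and 1.44 CPM in the rest (log2 fold change 5.24 ± 0.19, SE, adjusted p = 6.55e-15). Il2rb was at 352 to 459 CPM against 45.1 to 60.5 CPM (2.78 ± 0.09, adjusted p = 2.18e-15), so the beta chain was higher where the alpha chain was detected. Cish was at 162 to 190 CPM against 32.4 to 55.9 CPM (1.88 ± 0.11) and Pim1 at 170 to 272 CPM against 35.4 to 54.8 CPM (2.07 ± 0.08).

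Foxp3 was detected in 46.0 to 60.1% of the cells with an Il2ra UMI in this gate. With all cells that had a Foxp3 UMI left out, the values were 5.36 for Socs2, 2.76 for Il2rb, 1.82 for Cish and 2.04 for Pim1, so that the contrast was as large without them. A cell with Foxp3 RNA and no Foxp3 UMI would remain in that set. Of 14 tested genes induced by IL-2 or STAT5, 8 were higher and 1 lower with an Il2ra UMI in this gate, Tnfrsf4 by 3.40 ± 0.08, and of the signalling genes Stat5a was higher by 0.76 ± 0.12 and Jak3 by 0.42 ± 0.12. The 2 statuses had like depths in this gate, with a median of 2916 to 3177 UMIs per cell with and 3317 to 3401 without an Il2ra UMI.

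In IL-4eGFP+ nodes all 7 genes passed, 4 higher and 3 lower in cells with an Il2ra UMI, where 59.8% of 10299 genes passed. Socs2 was at 42.7, 62.0, 24.2 and 45.3 CPM against 7.38, 5.52, 5.56 and 6.66 CPM, with no overlap (2.85 ± 0.17, adjusted p = 1.23e-10). Cish was at 68.2, 118, 76.9 and 76.1 CPM against 32.3, 33.9, 25.3 and 26.0 CPM (1.59 ± 0.10, adjusted p = 4.03e-10). Pim1 was at 93.7 to 131 CPM against 44.0 to 62.0 CPM (1.21 ± 0.09), and Il2rb at 179 to 191 CPM against 117 to 163 CPM (0.48 ± 0.08). These 4 genes were higher in every sample. Of the 15 genes known to be induced by IL-2 or STAT5, 12 were higher and 1 lower in the cells with an Il2ra UMI. The higher ones included Gzmb (1.67 ± 0.22), Dusp5 (1.16 ± 0.11) and Tnfrsf4 (1.14 ± 0.08). Of the 5 repressed genes 4 were lower, led by Bcl6 (-3.04 ± 0.15). The lists were counted with all cells only. After thinning 1175 of 9029 genes passed, and with cycling cells left out 1431 of 9471 did. The part of depth or cycling in the list genes was not tested.

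The values of the 3 lower genes changed with cycling cells left out and with thinning. The part of depth or cycling in them was not tested. Cells with an Il2ra UMI were deeper in this gate, with a median of 6893 to 9782 UMIs against 3042 to 3523, and 46.8 to 63.9% of them were cycling against 15.9 to 17.8%. A Foxp3 UMI was found in 6.02 to 7.43% of them in medLN and in 16.3% of them and more in MLN. The part of these cells in the contrasts was not tested. Of the B cell and myeloid lists, 2 genes each were tested, and all passed as lower with an Il2ra UMI (medians -5.41 and -3.38). The part of such RNA in the contrasts was not tested either. Il2rg (-0.26), Socs1 (-0.37) and Socs3 (-1.11) all passed as lower with all cells, but with cycling cells left out their values were 0.33 (adjusted p = 7.13e-04), 0.37 (0.0266) and 0.19 (0.453). Thinning left out shallow cells and set Il2ra status anew from the thinned UMIs. After thinning the 3 genes were at 0.14, 0.20 and -0.07, with none past the threshold, while Socs2, Cish, Pim1 and Il2rb still passed.

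In the first run the same split gave 0 of 7 genes in lung and MLN together, where 1.14% of 9329 genes passed by edgeR, with 1540 at an unadjusted p under 0.05. Socs2 came nearest (2.08 ± 0.48, SE, adjusted p = 0.0602), then Cish (1.32 ± 0.35, adjusted p = 0.0848), and DESeq2 called Socs2. Fitted on MLN alone, Cish was at 141 and 157 CPM in cells with an Il2ra UMI and at 24.4 and 24.3 CPM in the rest (2.63 ± 0.28), and Socs2, Pim1 and Il2rb were higher by 4.29 ± 0.46, 1.30 ± 0.25 and 1.203 ± 0.21, all past the threshold. In lung alone Cish was at 343 and 334 CPM against 254 and 238 CPM, a difference of only 0.46 ± 0.08 (adjusted p = 0.0167). Socs2 there was at 66.1 and 102 CPM against 37.8 and 33.8 CPM (1.07 ± 0.17, adjusted p = 0.00757), and Socs3 was lower, at 40.1 and 36.2 CPM against 92.0 and 59.9 CPM (-1.07 ± 0.15, adjusted p = 0.00319).

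A test of this difference between organs, added after the data had been seen, called 4 of 7 genes, all with the smaller contrast in lung, where 0.740% of 9329 genes passed. The difference of log2 fold changes (lung less MLN) was -2.14 ± 0.20 (SE) for Cish (adjusted p = 6.86e-04), -3.13 ± 0.40 for Socs2 (0.00356), -1.07 ± 0.19 for Pim1 (0.0249) and -1.01 ± 0.19 for Il2rb (0.031). Without lung mouse 1 none of the 4 passed (adjusted p = 0.248 for Cish), and without lung mouse 2 Pim1 and Il2rb did not. The MLN side of this test rested on 102 cells with an Il2ra UMI. Lung cells with no Il2ra UMI had 254 and 238 CPM of Cish, above the 141 and 157 CPM of the MLN cells that had one. Such lung cells can include some that held Il2ra RNA. On thinning, the share with an Il2ra UMI fell from 32.3 and 20.4% to 13.02 and 10.8% in lung. In MLN it fell from 3.21 and 3.05% to 1.58 and 1.35%. The part of missed Il2ra RNA in the difference between organs was not tested.

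The same test between the gates of the second run, also added, called 5 of 7 genes, where 40.4% of 10073 genes passed, all 5 with the lower fold change in IL-4eGFP+ cells. The difference (IL-4eGFP+ less IL-4eGFP-) was -2.31 ± 0.13 for Il2rb and -2.41 ± 0.30 for Socs2. It was -1.04 ± 0.19 for Socs3, -0.88 ± 0.13 for Pim1 and -0.26 ± 0.08 for Il2rg, but after thinning only Il2rb (-2.30) and Socs2 (-1.25) passed, and with cycling cells left out Il2rg was at 0.27 and Socs3 at 0.06. Cish differed by -0.30 ± 0.17 and did not pass (adjusted p = 0.173).

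**Figure D5:**
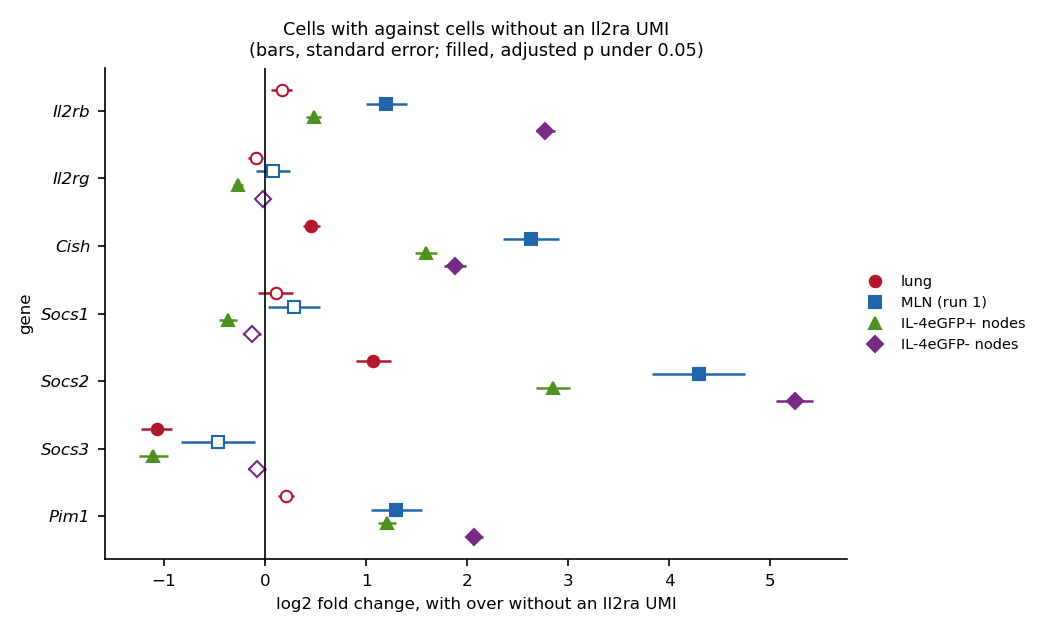
Log2 fold change of cells with over cells without an Il2ra UMI (horizontal axis) for the other 7 genes in lung, in MLN of the first run and in the IL-4eGFP+ and IL-4eGFP- nodes of the second, with standard errors as bars (n = 2 sample pairs in the first run and 4, from 2 mice, in the second) and filled symbols where the adjusted p was under 0.05. Socs2 and Cish were filled to the right of 0 in all 4 sets, from 1.07 to 5.24 and from 0.46 to 2.63.

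Set side by side over both runs, which were not tested against each other, the genes had different orders of level. The runs differed in mice, age, library preparation, depth and cell filter. Only the first required productive TCR chains, and only the second used hashtag singlets. Il2ra had its highest mean in medLN IL-4eGFP- cells (100.0 ± 4.71 CPM, SD, n = 2), followed by MLN IL-4eGFP- (90.5 ± 5.88), medLN IL-4eGFP+ (79.6 ± 9.65), lung (76.8 ± 14.4) and MLN IL-4eGFP+ (64.6 ± 7.56), and neighbours overlapped from MLN IL-4eGFP- down to MLN IL-4eGFP+. The MLN of the first run was lowest, at 11.7 ± 3.88 CPM, although its cells came from the same organ and gate as those at 64.6 CPM. Its share of cells with an Il2ra UMI was also lower than in MLN IL-4eGFP+ cells, which had 7.08 and 9.98%. Cells with a Foxp3 UMI were 0.284 to 0.398% of first-run MLN cells and 2.71 to 3.24% of MLN IL-4eGFP+ cells. Their part in this gap was not tested. Without them the MLN IL-4eGFP+ samples were at 50.2 and 59.4 CPM of Il2ra. Every IL-4eGFP- sample without them was below both lung samples. By share of cells with an Il2ra UMI, lung was highest, at 20.4 to 32.3% (thinned 10.8 to 13.02%). That share was 11.6 to 12.1% in medLN IL-4eGFP- cells (thinned 8.06 to 9.37%) and 11.6 to 11.8% in MLN IL-4eGFP- cells (thinned 8.44 to 8.57%).

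Cish, Socs2 and Pim1 had their highest means in lung, at 275 ± 16.9, 49.8 ± 2.08 and 482 ± 40.6 CPM, above every other group with no overlap. The next were medLN IL-4eGFP- for Cish (66.7 ± 8.77 CPM) and Pim1 (77.3 ± 9.42) and medLN IL-4eGFP+ for Socs2 (17.1 ± 2.33). For Cish and Socs2 the MLN of the first run was lowest again (30.5 ± 1.17 and 4.91 ± 0.594 CPM). For Pim1 the groups from the MLN of the first run (67.5 ± 2.03) to MLN IL-4eGFP- (61.4 ± 14.4) all overlapped. Il2rb spanned 1.86 times from medLN IL-4eGFP+ (165 ± 6.22 CPM) to MLN IL-4eGFP- (88.7 ± 8.85), and Il2rg only 1.35 times from lung (879 ± 3.48) to the MLN of the first run (649 ± 42.3).

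Socs1 and Socs3 had their highest means in IL-4eGFP- cells. Socs1 was at 359 ± 21.1 CPM in medLN IL-4eGFP- and 278 ± 64.0 in MLN IL-4eGFP-, and all other groups lay between 132 ± 15.01 and 104 ± 27.7 CPM with overlapping neighbours. Socs3 was at 132 ± 36.4 and 122 ± 13.8 CPM in the 2 IL-4eGFP- groups, which overlapped, and at 47.2 ± 26.4 to 71.2 ± 9.11 CPM elsewhere. In the IL-4eGFP- reference cells with Ccr7 and Lef1, Socs1 was detected in 50.99% (thinned 36.5%) and Socs3 in 33.01% (thinned 21.2%) of cells, so that the 2 genes were found in cells with little Il2ra.

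Over the 12 samples, with log2(CPM + 1) centred within each run, the genes fell into like patterns, given as a description of samples that share mice and libraries. Il2ra correlated with Cish (Pearson r = 0.98), Pim1 (0.95) and Socs2 (0.93), Cish with Pim1 (0.96), Il2rg with Pim1 (0.90), and Socs1 with Socs3 (0.90). Il2rb correlated with none of the others above 0.39 and was opposed to Socs1 (-0.68). Il2ra, Cish, Socs2 and Pim1 differed most between lung and MLN of the first run. Their correlations, also those with the genes named next, mostly restate that difference. Between the gates of the second run, Il2ra passed as lower in IL-4eGFP+ cells and Socs2 did not pass. Among the 5800 genes above a mean level of 20 CPM, those most like Il2ra were Ppp1r15a, Tgif1 and Csrnp1 (0.98 each). Those most like Cish were Tmem64, Tgif1 and Csrnp1 (0.98 to 0.99), those most like Pim1 were Dusp5, Tiparp and Nfkbia (0.98 to 0.99), and those most like Socs2 were Anxa6, Gm26532 and Crip1 (0.98 to 0.99). Usp1 and Top2a were among the genes most like Il2rb (0.96 to 0.97), and those most like Il2rg were Slamf1, Slc3a2 and Calcrl (0.94 to 0.97). Gpr146, Atn1 and Spsb1 were most like Socs1 (0.95 to 0.96), and Eno1, Gpr146 and Socs1 most like Socs3 (0.90 to 0.98).

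By cell cycle, Il2ra in IL-4eGFP+ cells of the second run was at 127, 137, 105 and 111 CPM in cycling cells and at 30.5, 47.5, 30.9 and 37.0 CPM in the others, higher in cycling cells of all 4 samples. In IL-4eGFP- cells it was higher in cycling cells except in MLN mouse 2, at 55.8 against 88.4 CPM. In lung it was at 82.2 and 74.3 CPM in cycling cells and at 89.7 and 62.8 CPM in the others, with no common direction. The MLN of the first run had 27.4 and 5.99 CPM in cycling cells and 10.5 and 9.85 CPM in the others, again without one. The 5.99 CPM rested on 6 UMIs. Cish was lower in cycling lung cells of both mice, at 238 and 206 CPM against 314 and 291 CPM. The level of Socs1 was lower in cycling cells of all 12 samples, from 61.4 to 184 CPM against 95.6 to 394 CPM, while the share of cells with a Socs1 UMI was higher in cycling cells of most samples. The cell cycle values were not tested.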

How the data were processed

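The deposited matrices held UMI counts per gene and cell, which the authors made with Cell Ranger (2.1.1, 3.0.1 and 6.1.2 in their processing notes) on mm10. Barcodes with over 500 UMIs and 500 genes, under 7% mitochondrial UMIs and a novelty score over 0.8 were kept, in the first run only with productive TCR alpha and beta chains. Hashtags were called with HTODemux (Seurat 5.3.0), and only singlets were kept. In the second run the number ending a barcode was matched to the number ending the library title, which gave the gate. UMIs were summed per sample and tested with edgeR 4.0.16 (filterByExpr, TMM, quasi-likelihood, Benjamini-Hochberg over all genes tested, threshold 0.05), after checks on simulated data. The 8 genes passed the filter in every comparison, except Il2ra, which was not tested between cells with and without its own UMIs. In lung against MLN within cells with an Il2ra UMI it was fitted, but its value is not given. DESeq2 1.42.0, other scalings and filters, thinning, left-out cells and left-out samples were alternatives. The members and lists were chosen with earlier results of these data known. A few genes of these lists are not reported here. Genes were named as members, or from the pathway lists where called or largest.

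Same-numbered samples came from the same mouse, so numbers pair samples. The correlations of their deviations were 0.0398 in lung and MLN, 0.235 and 0.117 between nodes of each gate, and 0.155 and 0.179 between gates. Splits within a sample were fitted with the sample as a block. Intervals are exact 95% binomial ones and cover counting error only. Libraries shared 0 to 1.61% of cell barcodes. Each group has 2 mice.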

Additional observations from a re-analysis of the deposited data

Results flagged for a closer look

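Some contrasts of cells with and without an Il2ra UMI differed between groups by an interaction term in the edgeR model. Cells with no Il2ra UMI can hold Il2ra RNA, and the part of this in the differences was not tested. Between organs (log2 fold change in lung less that in MLN), the difference was -2.14 for Cish, -3.13 for Socs2, -1.01 for Il2rb and -1.07 for Pim1. In that test 0.740% of 9329 genes passed. Between gates (IL-4eGFP+ less IL-4eGFP-), the difference was -2.31 for Il2rb, -2.41 for Socs2, -1.04 for Socs3, -0.88 for Pim1 and -0.26 for Il2rg. There 40.4% of 10073 genes passed. After thinning only Il2rb and Socs2 passed between gates, and with cycling cells left out Il2rg and Socs3 changed sign. The groups had 2 mice each, so no sample was examined for lying apart from the others of its group.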

How the results depend on the processing

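Fold changes were counted for all 8 genes in lung against MLN, and elsewhere for those that passed in the reported fit or an alternative. Il2ra was not counted in cells chosen by its own UMIs. Of 443 such fold changes under other settings, 370 kept direction and side of the threshold and 27 passed newly. A further 14 no longer passed and 32 changed sign. Of 296 with 1 sample left out, these counts were 262, 13, 14 and 7, and 11 of all 39 sign changes were of called values. The causes were not tested. In each of the 12 samples the share of cells with a UMI of each member was lower after thinning, which left out 1797 shallow cells. Groups of 2 mice, and the 102 MLN cells with an Il2ra UMI in the first run, limit precision. A lone sample of a group was assumed to vary like the other group.

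In lung against MLN, 3284 genes passed, and 2010 did after thinning, 1833 in DESeq2 and 389 in cells with an Il2ra UMI, where 2 of the members passed. The split was 1803 higher and 1481 lower, or 1309 and 2050 with scaling by total UMIs, which moved the median of all genes to -0.15. Without 1 sample, 1907 to 3678 genes and 4 to 7 members passed. Values of opposite sign were Il2rb at -0.63 and Socs1 at -0.051 in cells with an Il2ra UMI, and Socs3 at 0.24 in cells with no Il2ra UMI, 0.051 without cycling cells and 0.044 with no TCR criterion. Without 1 sample, Socs1 lay between -0.26 and 0.44 and Socs3 between -0.38 and 0.29.

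Between nodes in IL-4eGFP+ cells, 144 genes passed, 47 with no filter on low counts, and 13 to 191 without 1 sample. Of the members, 1 (Il2rb) passed after thinning, without cycling cells or with the replicate block, and 0 to 1 without 1 sample. In IL-4eGFP- cells 19 genes passed (16 higher and 3 lower, or 18 and 1 with total UMIs), 5 with all 8 sums in 1 fit, 4 after thinning, 6 without cells with a Foxp3 UMI, 12 without cycling cells, 2 with no filter and 65 with the replicate block, which called 1 member (Socs1). Without 1 sample these were 98 to 194 genes and 0 to 3 members, and Socs3 lay between -0.44 and 0.16.

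Between gates, 3450 genes were higher and 3504 lower, or 5174 and 1996 with total UMIs, where the median of all genes was 0.18. Without 1 sample, 6529 to 6754 genes and 6 to 7 members passed. Values of opposite sign were Il2ra at 0.60 and Pim1 at 0.12 without cells with a Foxp3 UMI, Il2rg at 0.023 with total UMIs, and Socs2 at -0.46 after thinning, -0.40 without cycling cells, -0.17 in MLN alone and -0.057 to 0.23 without 1 sample. For gate by node, 20 genes passed (8 higher and 12 lower, or 8 and 19 with total UMIs), 12 without cells with a Foxp3 UMI, 34 in DESeq2, 84 with the replicate block with 1 member (Socs3), and 9 to 24 with 0 members without 1 sample.

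By Il2ra status in lung and MLN, 106 genes and 0 members passed. These were 54 and 4 after thinning, 168 and 1 in DESeq2, 172 and 3 in lung alone, 355 and 4 in MLN alone, 2 members without cycling cells, 1 (Socs2) with no replicate block, and 23 to 79 genes with 0 to 1 members without 1 sample. In IL-4eGFP+ nodes, 6160 genes fell to 1175 (4 members) after thinning and 1431 without cycling cells, and were 5439 to 5714 with 7 members without 1 sample. There Il2rg was at 0.14 after thinning and 0.33 without cycling cells, Socs1 at 0.20 and 0.37, and Socs3 at 0.19 without cycling cells. In IL-4eGFP- nodes, 2545 genes became 1395 after thinning, 1102 without cells with a Foxp3 UMI, 1546 in DESeq2 and 1912 to 2416 with 4 to 5 members without 1 sample, and the split of 1407 higher and 1138 lower became 2256 and 668 with total UMIs. There, after thinning, without cells with a Foxp3 UMI, without cycling cells and with total UMIs, Socs1 was at 0.15, 0.032, 0.026 and 0.020 and Socs3 at 0.35, 0.060, 0.13 and 0.064.

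By Foxp3 status, 2396 genes passed (1347 higher and 1049 lower, or 2066 and 637 with total UMIs), 1307 after thinning, with Socs1 at 0.0056, and 1755 to 2164 with 5 to 6 members without 1 sample. For Il2ra status by organ, 69 genes passed, 32 after thinning, 277 without cycling cells, 42 with total UMIs, 6 with no replicate block, where 2 members (Cish and Socs2) passed, and 0 to 705 with 0 to 4 members without 1 sample. For Il2ra status by gate, 1828 genes were higher and 2243 lower, or 1078 and 3312 with total UMIs (median -0.28), 1016 passed after thinning, with 2 members, 1519 without cycling cells, and 3590 to 3860 with 4 to 5 members without 1 sample. There, after thinning and without cycling cells, Il2rg was at 0.074 and 0.27, Cish at 0.27 and 0.41 and Socs1 at 0.067 and 0.33, and Socs3 was at 0.056 without cycling cells. Fitting or leaving out the replicate block changed no other call of a member than these, Pim1 between gates and Il2rb and Pim1 by organ.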
